A study of Cucumis sativus with 18 samples.

Results

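In cucumber (Cucumis sativus) ovary culture, 35 of the 23248 genes in the deposited tables were low in embryos at day 10 and day 20 and high, at a similar level, at the 4 other times sampled. They were chosen by their mean RPKM, the number of reads scaled to gene length in kilobases and to library total in M (mega) reads, over the 3 libraries of each time. A gene was taken only when its mean was at least 5 RPKM in fresh ovaries and at day 2, day 30 and day 60. With 1 RPKM then added to each mean, those 4 values had to lie under 2-fold apart. The lowest of them also had to be at least 2 times the higher of day 10 and day 20. The level and evenness at the 4 high times were met by 4923 genes, and 35 of these also met the last condition. Because these values chose the genes, every level set against day 10 or day 20, and every difference among the 4 high times, is a description here and carries no test. The rule caps the higher of day 10 and day 20 and sets no direction between them, and their difference was tested.

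The series holds 18 RNA-seq libraries, 3 at each of 6 times, described as biological replicates in the series design. Unpollinated ovaries were taken fresh, ovules were taken at day 2 of culture, and embryos at days 10, 20, 30 and 60. The tissue label reads ovary throughout, and the labels give no cultivar, medium, donor plant or pooling, so the sampled material changed together with the time. In ovary culture, unfertilised ovaries or ovules are placed on a medium so that cells inside the ovule, the unfertilised egg cell among them, may divide and form embryos without pollination. Plants regained this way are used in breeding to fix pure lines. An embryo in such culture starts inside maternal ovule tissue and passes through globular and later stages. As it grows it can become a larger part of what is sampled, and its part in these samples was not measured. In such bulk RNA, fewer cells of a type and less RNA per cell cannot be told apart.

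None of the 23248 gene IDs matched an entry of the RefSeq table of the cucumber assembly Cucumber_9930_V3, so the genes are given by ID, with no name, function or sequence, and the tissue could not be checked against marker genes. The libraries held 21.8 to 34.0 M reads assigned to genes in replicates 1 and 2 and 48.9 to 72.5 M in replicate 3, as worked out from the steps of the RPKM values. Libraries of the same time correlated across 18153 tested genes at a Pearson r of 0.957 to 0.991 on log2(RPKM + 1). Fewest genes above 0 were listed in replicate 1 of day 10, with 17653, and in replicate 1 of day 20, with 18591, and the comparison of day 20 with day 10 is also given without these 2 libraries. The 3 libraries of each group limit the precision of its mean. The p-values set a difference of means against a spread between replicate libraries that is estimated over all 18 libraries.

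At day 10 and day 20 the genes stood far below their own level at the other times. Mean RPKM at day 10 was between 1.44% and 37.8% of the gene's own mean over the 4 high times, with a median of 16.2%. At day 20 it was between 14.3% and 34.9%, with a median of 28.3%. In RPKM the medians over the 35 genes were 2.25 at day 10, 3.45 at day 20 and 13.5 over the 4 high times, where single genes ranged from 6.88 to 217. Most of the set was moderately expressed, with 24 genes under 20 RPKM at the high times, 9 between 20 and 100, and 2 above 100. The rule fixes the upper end of the share at the higher low time, and that end is not a finding.

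**Figure D1:**
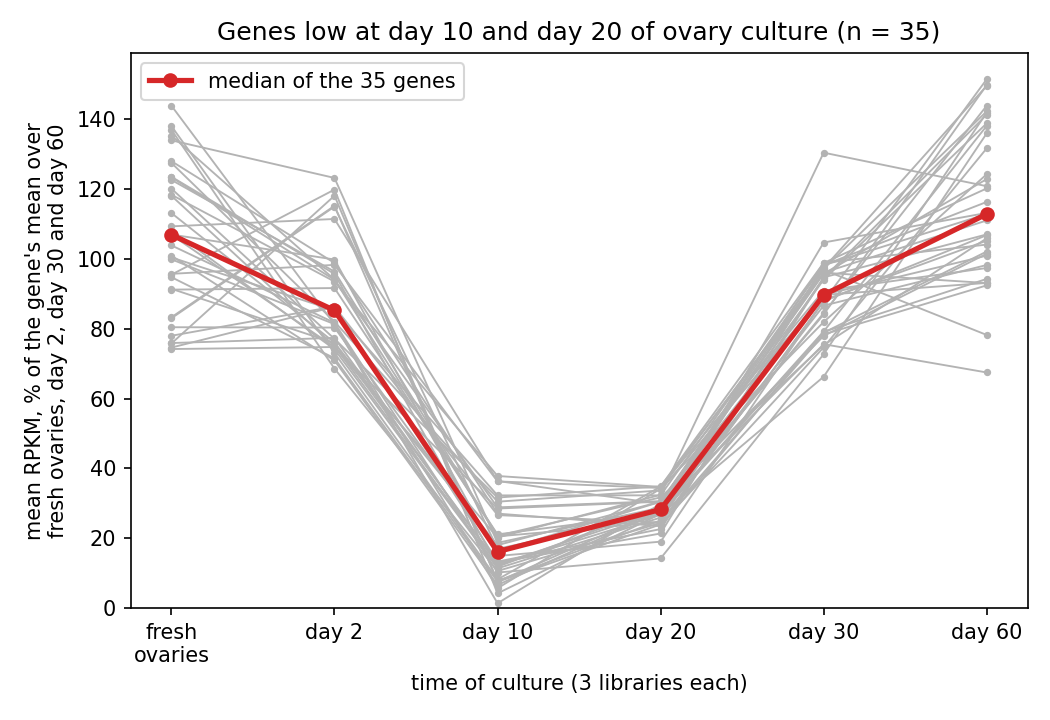
Mean RPKM of each of the 35 genes (grey lines) at the 6 times, as a percentage of that gene's mean over fresh ovaries, day 2, day 30 and day 60, with the median of the genes in red. The median lies at 16.2% at day 10 and 28.3% at day 20, and the grey lines are more tightly bundled at day 20 than at day 10.

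Read by library and not by mean, the separation held for nearly the whole set. In 34 of the 35 genes each of the 12 libraries of the high times lay above each of the 6 libraries of day 10 and day 20. The same separation was present in 6.65% of the tested genes, and nothing is read from the difference because the rule used this contrast. The exception was Csa1G614640, described further on. The median of log2(RPKM + 1) over the 18153 tested genes was itself 0.16 lower at day 10 and day 20 than at the other times as deposited, 0.02 lower under median-ratio scaling and 0.10 lower under upper quartile scaling. For the 35 genes the median difference was 1.93 as deposited.

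The gene with the largest ratio between its lowest high time and its higher low time was Csa5G171130, at 3.84. Its 3 libraries read 13.6, 16.3 and 19.5 RPKM in fresh ovaries, 13.0, 11.3 and 14.6 at day 2, and 1.85, 1.39 and 1.63 at day 10. They read 2.51, 1.97 and 2.31 at day 20, 12.9, 9.50 and 12.3 at day 30, and 24.5, 19.7 and 23.4 at day 60. The lowest library of the high times, 9.50 RPKM at day 30, was above the highest library of the low times, 2.51 RPKM at day 20. Csa4G280480 followed with a ratio of 3.58. It stood at 12.9, 14.4 and 14.2 RPKM in fresh ovaries, 14.02, 11.7 and 13.0 at day 2, and 1.46, 2.49 and 1.85 at day 10. At day 20 the libraries gave 2.36, 2.30 and 2.73 RPKM, at day 30 14.7, 9.30 and 10.1, and at day 60 14.9, 13.4 and 12.5. Unlike Csa5G171130, whose day 60 libraries all exceeded its fresh ovary libraries, Csa4G280480 had overlapping libraries at these 2 times.

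Csa1G597040, with a ratio of 3.17, was the third and last gene past a ratio of 3. Its levels were 29.0, 26.5 and 26.5 RPKM in fresh ovaries, 35.0, 31.3 and 24.6 at day 2, and 3.70, 5.36 and 4.99 at day 10. It measured 9.00, 7.32 and 7.53 RPKM at day 20, 36.2, 31.2 and 32.1 at day 30, and 52.9, 47.0 and 48.7 at day 60. Day 60 was thus the highest time in every library. Csa5G642730 had a mean of 16.4 ± 2.17 RPKM in fresh ovaries, 11.04 ± 1.39 at day 2, 1.90 ± 0.119 at day 10, 3.11 ± 0.402 at day 20, 14.3 ± 2.48 at day 30 and 16.4 ± 0.662 at day 60 (SD, n = 3 each). For Csa6G490030 the means were 10.9 ± 1.86, 17.0 ± 2.06, 1.09 ± 0.416, 3.45 ± 0.192, 10.7 ± 1.09 and 18.9 ± 1.78 RPKM in the same order of times. In this last gene day 2 and day 60 formed an upper level and fresh ovaries and day 30 a lower one.

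**Figure D2:**
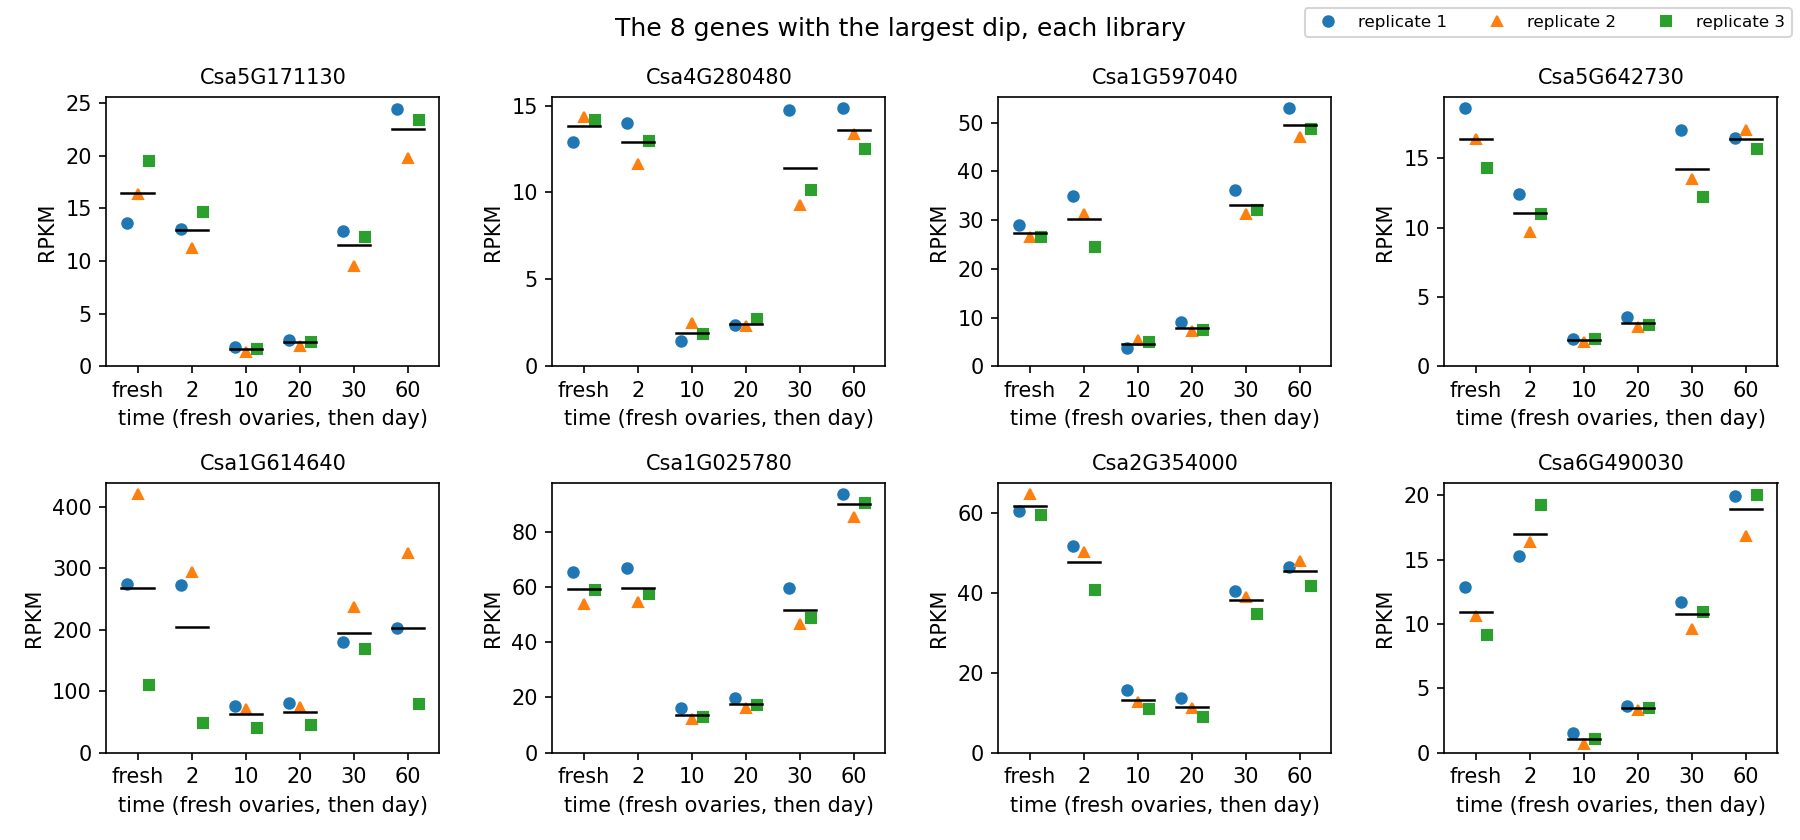
RPKM of the 8 genes with the largest ratio, 1 panel per gene, at fresh ovaries and days 2, 10, 20, 30 and 60. Points are single libraries, coloured by replicate, and black bars are means of 3. Day 10 and day 20 sit together near the bottom of every panel, and in Csa1G614640 and Csa2G354000 the replicate 3 libraries (green squares) lie lowest at every time, with the wider gap in Csa1G614640.

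A set of more abundant genes shared the pattern. Csa1G025780 averaged 59.4 ± 5.81 RPKM in fresh ovaries, 59.7 ± 6.37 at day 2, 13.8 ± 2.18 at day 10, 17.7 ± 1.92 at day 20, 51.6 ± 7.12 at day 30 and 90.0 ± 4.18 at day 60 (SD, n = 3 each). Csa7G237310 averaged 116 ± 7.87, 118 ± 3.80, 38.6 ± 11.8, 31.6 ± 9.72, 82.6 ± 7.86 and 108 ± 2.04 RPKM at the same 6 times. Its level at the low times was therefore still above the highest level of most of the set. Csa2G354000 and Csa2G345930 were highest in fresh ovaries, at 61.6 ± 2.77 and 47.5 ± 2.66 RPKM, and stood at 13.0 ± 2.32 and 15.2 ± 2.42 RPKM at day 10 and at 11.3 ± 2.37 and 13.9 ± 5.74 RPKM at day 20. Csa5G606630 came back least by day 60 among these, with 59.1 ± 6.82 RPKM in fresh ovaries, 8.26 ± 2.21 at day 10, 12.7 ± 0.926 at day 20 and 29.8 ± 3.11 at day 60.

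Csa1G614640 was the most abundant gene of the set and the least even between libraries. It read 274, 420.1 and 110.2 RPKM in fresh ovaries, 272, 293 and 47.4 at day 2, and 76.4, 71.4 and 40.5 at day 10. The remaining libraries gave 81.4, 74.1 and 44.4 RPKM at day 20, 180.3, 236 and 168 at day 30, and 202, 326 and 79.5 at day 60. Replicate 3 was the lowest of the 3 libraries at all 6 times, and at day 2 and day 60 it lay within or below the range of the other replicates at day 10 and day 20. Within each replicate number, every high time lay above day 10 and day 20. In replicate 3 the gap was narrow, with 47.4 RPKM at day 2 against 44.4 RPKM at day 20. The ratio was 2.90 over all libraries. It was 2.22 to 2.84 with any replicate left out, lowest without replicate 2 and 2.66 without replicate 3. The replicate 3 libraries were also the deepest at every time, and the part of depth or of a shared batch in this gene was not tested.

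The rule capped day 10 and day 20 alike and set no direction between them, though the means of both took part in the choice. In the comparison of day 20 with day 10, 21 genes passed the test, each in the same direction, and 14 did not pass. Of the 35 genes, 21 were higher at day 20 at an adjusted p under 0.05 (limma on log2(RPKM + 1), Benjamini-Hochberg over all 18153 tested genes), against a background of 16.4% of tested genes called higher. The share of the 35 was 60.0%. The tested genes were not chosen for a change around these times, as the 35 were. How much of the share follows from that choice was not tested. None of the 35 was called lower, where the background was 14.5%, and at an unadjusted p under 0.05 the counts were 23 higher and 0 lower, against 20.9% and 19.4% of tested genes. Voom on the recovered reads called 17 higher and 0 lower, against 15.8% and 14.7% of the genes tested that way. The median log2 fold change was 0.50 over the 35 genes and 0.01 over all tested genes. By mean RPKM day 10 was the lower of both times in 30 genes and day 20 in 5. All 3 day 20 libraries lay above all 3 day 10 libraries in 20 of the 35 genes, against 18.6% of tested genes, and lay below them in 0, against 17.3%.

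The 4 genes with the largest log2 fold changes in RPKM + 1 stood, at day 10, at 1.44% to 8.25% of their mean over the high times. Csa3G061020 had 2.44, 2.82 and 3.44 RPKM at day 20, against 0, 0.418 and 0 RPKM at day 10, which came from 89, 125 and 313 reads at day 20 and 0, 18 and 0 reads at day 10. Its log2 fold change, 1.79, was the largest of the set (SE 0.17, adjusted p = 6.04e-07 by limma). The libraries with 0 reads were replicates 1 and 3, of which replicate 1 lists the fewest genes and replicate 3 is the deepest. Without replicate 1 of both times its log2 fold change was 1.79 (adjusted p = 1.22e-05 by limma). Csa4G622750 had 5.82, 3.78 and 3.19 RPKM at day 20, against 0, 0.929 and 1.21 RPKM at day 10 (log2 fold change 1.67, SE 0.24, adjusted p = 6.05e-05 by limma). Replicate 1 held both its highest value at day 20 and its 0 at day 10, and the log2 fold change was 1.12 without replicate 1 of both times and 1.32 without that of day 10 alone (adjusted p = 0.000115 and 7.16e-05 by limma). Csa1G009820 had 11.8, 7.82 and 8.49 RPKM at day 20, against 2.26, 2.37 and 2.11 RPKM at day 10 (log2 fold change 1.66, SE 0.14, adjusted p = 2.10e-07 by limma). In Csa3G047810 the libraries gave 15.9, 10.5 and 7.92 RPKM at day 20, against 4.10, 2.51 and 1.52 RPKM at day 10 (log2 fold change 1.75, SE 0.24, adjusted p = 3.69e-05 by limma). At both times its replicate 1 was highest and its replicate 3 lowest, and within each number day 20 was above day 10. On the scale used, a fold change understates the change of genes at such low levels, and the order differs by mean RPKM. By that measure the ratio of day 20 to day 10 was 20.8 in Csa3G061020, 5.97 in Csa4G622750, 4.22 in Csa3G047810 and 4.17 in Csa1G009820, and it was 6.33 in Csa7G450750, named after its values were seen, with means of 2.19 ± 0.387 RPKM at day 20 and 0.346 ± 0.421 RPKM at day 10 (SD, n = 3 each).

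Among the genes with the largest dip, Csa6G490030 and Csa1G597040 also rose by day 20. Csa6G490030 had 3.65, 3.27 and 3.43 RPKM at day 20, against 1.51, 0.680 and 1.07 RPKM at day 10 (log2 fold change 1.11, SE 0.15, adjusted p = 2.37e-05 by limma). That of Csa1G597040 was 0.66 (SE 0.13, adjusted p = 0.00111). The smallest changes that passed the threshold were those of Csa1G025780 at 0.34, Csa6G018600 at 0.43, Csa3G891640 at 0.48 and Csa5G642730 at 0.50. Csa1G025780 lay at the edge, with an adjusted p of 0.0491 by limma, and lost its call when any of 4 libraries was left out (adjusted p = 0.0827 to 0.171). For Csa6G018600 the adjusted p was 0.0203, and it was no longer called without replicate 2 of day 10 (0.0699) or without replicate 1 (0.0762) or 2 (0.0589) of day 20.

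The other 14 genes did not pass the threshold, 8 with a positive and 6 with a negative log2 fold change. For Csa7G237310, at 42.8, 25.5 and 26.6 RPKM at day 20 and 52.1, 32.9 and 30.8 RPKM at day 10, it was -0.28, the lowest of the set, with a 95% interval of -0.67 to 0.11. Without replicate 1 of day 20 the value was -0.51 with an adjusted p of 0.0276 by limma, the 1 lower call among the 35 genes under that setting, and without replicate 1 of both times it was -0.28 with an adjusted p of 0.0435. Csa2G354000 had an interval of -0.50 to 0.11 and Csa4G280480 one of -0.07 to 0.57. The interval of Csa1G614640 ran from -1.27 to 1.45, so its change between these times was not resolved. Csa5G171130 had a log2 fold change of 0.31 with an adjusted p of 0.113, and of 0.0360 with the replicate number as a block. Csa7G037650, named after its values were seen, went past the threshold in the same way, with an adjusted p of 0.0829 without and 0.00199 with the block.

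**Figure D3:**
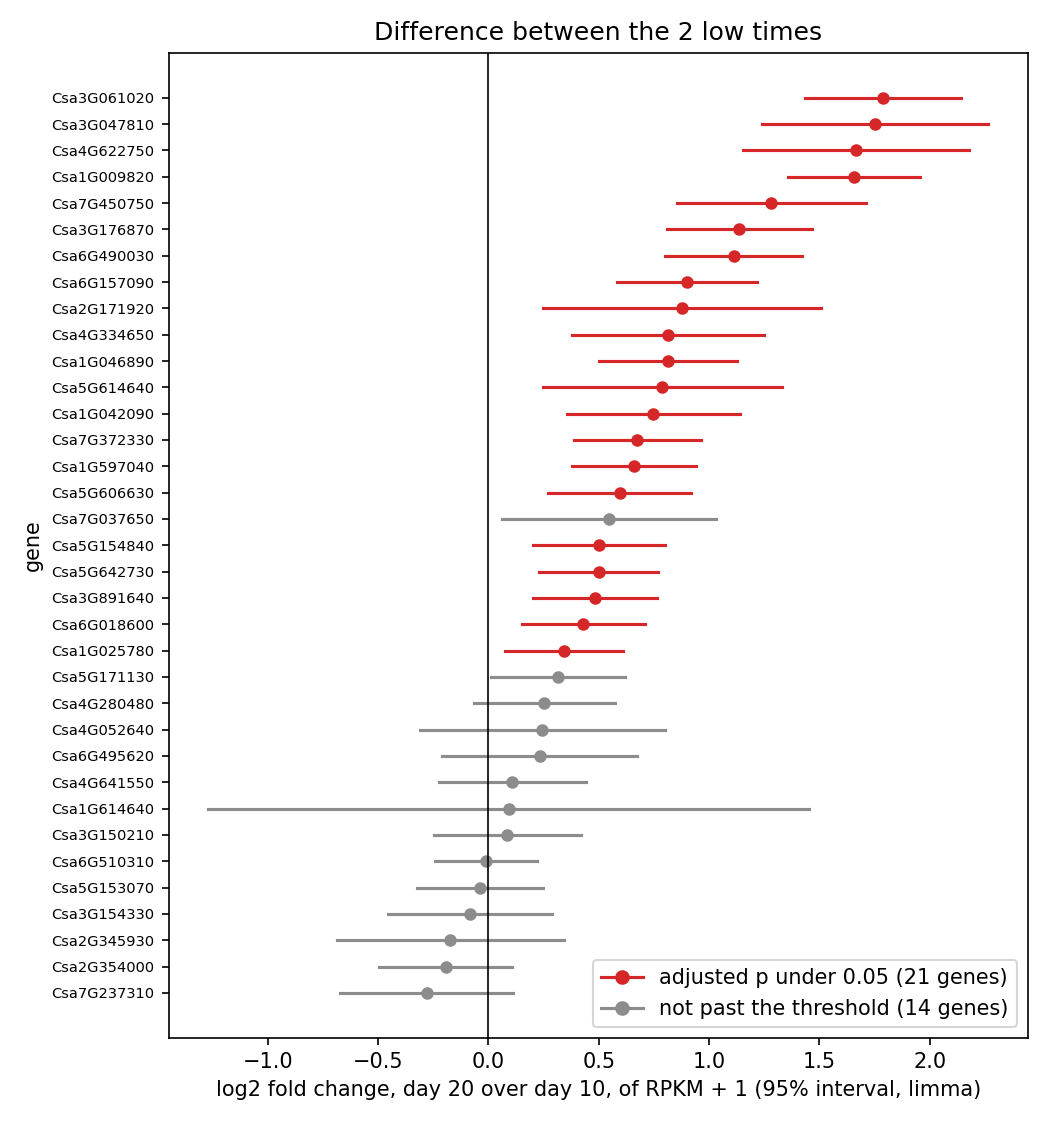
Log2 fold change of day 20 over day 10 in RPKM + 1 for each of the 35 genes, with 95% intervals from limma over all 18 libraries. The 21 genes past the threshold (red) are all to the right of 0, from 0.34 to 1.79, and the 14 others (grey) have intervals near or across 0.

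The direction was also looked at within each replicate number, since the replicate 3 libraries are the deepest. Day 20 was above day 10 in 31 of the 35 genes in replicate 1, in 24 in replicate 2 and in 27 in replicate 3, and in 24 genes in all 3. Over the tested genes these shares were 50.3%, 49.9% and 49.1%, and 30.9% for all 3. The median difference in log2(RPKM + 1) over the 35 genes was 0.72, 0.37 and 0.42 in replicates 1, 2 and 3, and it was 0.00, 0 and -0.01 over the tested genes. Replicate 1 thus had the largest difference. Within day 20, replicate 1 held the highest value of the 3 libraries in 22 of the 35 genes, against 36.6% of tested genes. Within day 10 it held the lowest value in 20, against 47.8%. Without replicate 1 of both times, 14 of the 35 genes were called higher and 1 lower, against 14.5% and 13.1% of tested genes. Of the 21 genes called higher over all libraries, 7 lost the call, Csa6G018600 and Csa5G606630 among them. A fit on only the 6 libraries of day 10 and day 20 called 13 higher and 0 lower, against 9.56% and 7.59% of tested genes.

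The same direction was found in a neighbouring pattern. With day 2 added to the low times and the rule otherwise alike, 70 genes qualified, and 38 of them, or 54.3%, were higher at day 20 than at day 10 and 0 lower, against 16.4% and 14.5% of tested genes, with a median log2 fold change of 0.55. Without replicate 1 of both times these counts were 36 and 1. Of the 54 genes low at day 2 only by the same form of rule, 8 were higher and 13 lower, which is 14.8%, near the share of tested genes, and 24.1%. The rules exclude any shared gene, since the 35 need day 2 near the other high times and both lists need it low. A large share of higher calls at day 20 was also present in the 70 genes and thus not particular to the 35.

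Among the high times, the genes were arranged differently from each other within the 2-fold limit of the rule. The highest mean of the 6 times was at day 60 in 16 genes, in fresh ovaries in 15, at day 2 in 3 and at day 30 in 1. The lowest of the 4 high means was at day 2 in 14 genes, at day 30 in 14, in fresh ovaries in 5 and at day 60 in 2. The matching counts over tested genes are not given, so these places are not read as a trait of the set. Day 60 was above day 30 in 31 of the 35 genes, by a median of 0.26 in log2(RPKM + 1), while it was above in 46.6% of tested genes, with a median of -0.04. Day 2 was below fresh ovaries in 24 genes, with a median difference of -0.32, against -0.02 over tested genes. It was above in 31.4% of the 35 genes and 48.7% of tested genes. Day 60 was above fresh ovaries in 19 genes and below in 16, and the share above, 54.3%, was near the 54.7% of tested genes. Day 30 was above fresh ovaries in 7 genes and below in 28, with a median difference of -0.25, against 0.10 over tested genes. The share above was 20.0% of the 35 and 55.4% of tested genes. The genes highest at day 60 include Csa1G597040, Csa1G025780, Csa1G009820, Csa5G171130 and Csa6G490030, and Csa6G490030 stood at 18.9 RPKM at day 60 and at 17.0 at day 2. Those highest in fresh ovaries include Csa2G354000, Csa2G345930, Csa5G606630, Csa3G047810 and Csa4G622750. Csa4G622750 stood at 17.9 ± 2.06 RPKM in fresh ovaries, 10.1 ± 1.91 at day 2, 12.1 ± 0.516 at day 30 and 9.75 ± 1.00 at day 60 (SD, n = 3 each).

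The threshold did not fall in a gap. The members just inside it were Csa3G047810, Csa3G150210 and Csa6G018600, with ratios of 2.01, 2.02 and 2.03. Just outside were Csa3G006640, Csa4G377150 and Csa6G157080, with ratios of 2.00, 1.98 and 1.98, the first of them 1.997 before rounding. Csa4G377150 was more abundant than any member, with means of 390 RPKM in fresh ovaries, 344 at day 2, 121 at day 10, 174 at day 20, 382 at day 30 and 415 at day 60. Of the 35 genes, 25 had ratios from 2 to 2.5, 7 from 2.5 to 3 and 3 above 3. Csa6G157080 carries the ID next to that of the member Csa6G157090, which was named after its values were seen and has a ratio of 2.45. The deposited values do not show whether reads were split between such genes.

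Membership moved with single replicates. When the rule was applied to 2 replicates of each time, it gave 26 genes without replicate 1, 38 without replicate 2 and 35 without replicate 3, of which 20, 30 and 29 were among the 35. In all, 14 of the 35 met the rule in all 3 cases. The libraries left out, which had no part in that choice, had their 4 high times above both low times in 26 of 26 genes for replicate 1, 38 of 38 for replicate 2 and 34 of 35 for replicate 3. The shares of tested genes with this order were 22.6%, 17.5% and 18.6%. Tested genes were not chosen for this order in the other 2 replicates, as the genes here were. Nothing is therefore read from the difference. In those libraries the median ratio of the chosen genes was 2.18, 2.24 and 2.12, and it reached 2 in 14, 24 and 20 of them. Median-ratio scaling of the libraries left 22 genes by the rule, 21 of them among the 35, and upper quartile scaling left 26, all among the 35. Csa5G171130, Csa4G280480, Csa1G597040, Csa5G642730, Csa1G614640, Csa1G025780, Csa2G354000 and Csa6G490030 met the rule under each of these settings.

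The number of such genes was set beside all other choices of low times. With the rule applied to each of the 15 pairs of times, day 10 and day 20 gave 35 genes, the second largest count. The pair of fresh ovaries and day 2 gave 40, fresh ovaries and day 60 gave 33, day 30 and day 60 gave 17, and day 2 and day 10 gave 16. Each of the remaining 10 pairs gave 4 or fewer. The mirror image, high at day 10 and day 20 and at an even, lower level at the 4 other times, held 40 genes.

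**Figure D4:**
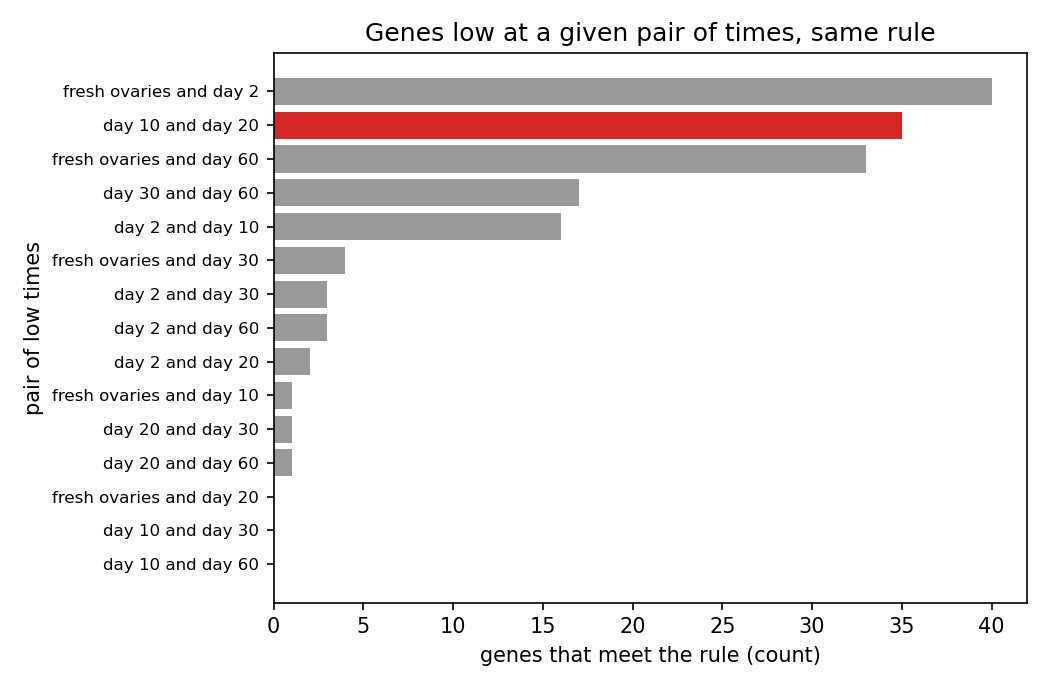
Number of genes that meet the same rule for each of the 15 pairs of low times, with day 10 and day 20 in red. The bar of day 10 and day 20 reaches 35, between 40 for fresh ovaries and day 2 and 33 for fresh ovaries and day 60.

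Gene length and gene ID were not used by the rule. Gene lengths recovered from the RPKM steps had a median of 2329 bases over the 35 genes, with a range of 800 to 9651, of 3494 bases over the 4923 genes that met the level and evenness conditions, and of 2870 bases over tested genes. Of the 35 genes, 11 were longer than the median of the 4923. The shortest was Csa3G047810 at 800 bases and the longest Csa4G641550, named for its length, at 9651. How these lengths treat introns is not stated in the labels or headers. Gene IDs were spread over all 7 numbered groups, with 6 genes each under Csa1G, Csa3G and Csa5G, 5 each under Csa4G and Csa6G, 4 under Csa7G and 3 under Csa2G. The shares of the 35 and of tested genes were 17.1% and 14.4% for Csa1G, 8.57% and 12.2% for Csa2G, and 17.1% and 20.9% for Csa3G. For Csa4G to Csa7G they were 14.3% and 12.1%, 17.1% and 13.0%, 14.3% and 16.8%, and 11.4% and 10.1%. No 2 of the 35 stand in adjacent rows of the tables. Of the 65 tested genes in adjacent rows, 20 had all 4 high times above both low times, against 20.3% of tested genes.

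The low values rested on few reads in some genes. Reads of a gene summed over the 3 libraries had a median of 651 at day 10 and 1154 at day 20. The lowest sums were 18 at day 10 and 200 at day 20, and 4 genes had under 100 reads at day 10. The SD of log2(RPKM + 1) between replicates had a median over the 35 genes of 0.26 at day 10 and 0.19 at day 20, and over tested genes of 0.21 and 0.19.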

How the data were processed

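RNA from 18 libraries was sequenced by the submitters, and groups were taken from the time label. The values deposited by the authors are RPKM, per the file headers, 1 column per library. The submitters' processing notes name TopHat2, TopHat and HTSeq (0.6.1p2) without saying what each did. For genome build, annotation and strand setting, nothing is given in the sources used here. The header of the fresh ovary table holds its 3 library names in 1 cell, read in that order. RPKM corrects for depth and gene length, not for a change in RNA make-up.

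Library totals, whole reads and gene lengths were recovered from the RPKM steps for 20415 of 21761 genes above 0. A gene was accepted only when all its values above 0 lay close to whole reads. That 100% of accepted values lay within 0.1 of a whole read follows from this and is no check. The recovery was tested on simulated data. limma 3.58.1 in R 4.3.3 was fitted to log2(RPKM + 1) of all 18 libraries, 1 coefficient per time, with trended, robust variance, for genes that reached an RPKM of 1 in at least 3 libraries. Calls use an adjusted p under 0.05 (Benjamini-Hochberg). On simulated reads for day 20 against day 10, over 17427 genes, the calls included 4 of the 72 with a true 1.5-fold change. They included 41 of the 71 with a 2-fold change and 57 of the 57 with a 4-fold one, and 5.56% of calls were false. Far fewer genes changed there than were called in the data, with the same extra spread for every gene and no pairing. These shares are therefore not carried over to the data. Same-numbered libraries of day 10 and day 20 deviated together (r of 0.23 to 0.61 across genes), so the numbers were taken to pair them. Over all pairs of times r was 0.07 to 0.65 for the same number and -0.47 to 0.26 for different numbers. The link thus ran through all 6 times, and its source was not tested. The main calls came from the fit without it, and a fit with the replicate number as a block was an alternative. Other alternatives were the pseudocount, filter, scaling and libraries left out. Genes named are the 8 with the largest ratio, the 5 next by level, the 4 largest and 4 smallest called changes at day 20, and the 3 on each side of the threshold, unless stated. The genes and the rule for naming were chosen with earlier results of these data known. Python 3.11.15, numpy 2.4.6 and pandas 2.3.3 were used. Gene lists by function could not be used without gene names.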

Additional observations from a re-analysis of the deposited data

How the results depend on the processing

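By construction the number of genes meeting the rule moved with its limits, to 150 at a ratio of 1.5, to 3 at a ratio of 3 and to 18 at a level of 10 RPKM. It moved to 22 under median-ratio scaling. That scaling divided the libraries of day 10 and day 20 by 0.906 to 0.969 and those of day 30 and day 60 by 1.05 to 1.12. Such a division brings the low and high times closer together. Why the factors differ between times was not tested. Leaving out a replicate at every time gave 26 to 38 genes, and the other settings 26 to 47. The count of genes higher at day 20 was 13 of the 35, and 1736 of all tested genes with 1377 lower, when only the 6 libraries of those times were fitted, where fewer samples estimate the spread. It was 14 without replicate 1 of both times, a setting chosen after seeing the data like voom. With 1 library left out it was 18 to 19. Over all tested genes the counts higher under these settings were 2632 and 2570 to 2967. The count of the 35 genes lower was 0 to 1 with 1 library left out and 1 without replicate 1 of both times. Over all tested genes it was 2237 to 2522 and 2372. With the replicate block, 23 of the 35 were higher and 0 lower. The shares of tested genes were 20.5% and 19.7%, up from 16.4% and 14.5%. The 2 calls gained among the 35 were those of Csa5G171130 and Csa7G037650, with none lost. Of 252 alternatives for the 18 of the 35 genes chosen for naming, 226 kept direction and call, 16 lost the call, 4 gained it and 6 changed sign, all 6 in genes not called. With 1 library left out the log2 fold change of Csa1G614640 was -0.19 to 0.36, of Csa2G345930 -0.47 to 0.056 and of Csa3G150210 -0.10 to 0.22, and Csa3G150210 had -0.022 without replicate 1 of both times. Depth limits the genes with under 100 reads at day 10.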
